A study of Homo sapiens with 12 samples.

Results

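The genes described are the proteasome subunit family, taken by symbol as every gene named PSMA, PSMB, PSMC, PSMD, PSME, PSMF or PSMG with a number. Of 48 family genes listed, 45 had an array feature (the set of probes summarised as 1 value) that named that gene alone, among 18417 genes measured. PSMC5, PSMD7 and PSMD13 were not matched to such a feature and were not analysed here. For a gene with several features the one with the highest mean of the 12 arrays was used. PSMC1 and PSMC6 had 2 features each, PSMB8 and PSMB9 had 3 each with equal values on all 12 arrays, and the other 41 had 1. The rule uses symbols alone, though the family was picked for description with earlier results of these data known.

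RNA came from MDA-MB-231, a widely used human cell line from triple-negative breast cancer, mesenchymal in type, and was hybridised to 12 one-colour Affymetrix arrays. The 4 groups of 3 arrays were parental cells without treatment, parental cells given TRAIL, cells of the same line that had been treated to resistance (TTR) without further treatment, and TTR cells given TRAIL. TRAIL, a death ligand of the tumour necrosis factor family, was given at 100 ng per ml for 2 h. Which agent made the TTR cells resistant, for how long, and whether they are a clone or a pool, was not stated in the labels. The sample descriptions carry 1 unexplained tag in one form on parental and in another on TTR arrays, and its meaning and the line cannot be told apart. The labels do not state that the 3 arrays of a group came from separate cultures, so a p-value here measures the spread between these arrays alone.

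The proteasome degrades proteins that carry ubiquitin chains. Its barrel-shaped core has outer rings of alpha subunits, which gate the entry, and inner rings of beta subunits, some of which hold the proteolytic sites. The regulatory particle that caps the barrel has a base, with ATPases that unfold the substrate, and a lid, which removes ubiquitin. Dedicated chaperones assemble the core and the base. In tumour cells the proteasome sets the turnover of many regulators of cell death and of NF-kB signalling, and its catalytic sites are drug targets.

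Values are RMA signals on the log2 scale, each relative to the rest of its array, so a change in total RNA per cell is not seen. Since the RNA is from bulk cultures, fewer cells of a kind and less RNA per cell cannot be told apart. Changes are differences of group means on the log2 scale with the standard error (SE) of the limma fit, n = 3 arrays per group. A gene was called higher or lower at a limma adjusted p under 0.05, adjusted by Benjamini-Hochberg over all 18417 genes. The parental TRAIL arrays stood apart. Their medians over all features were 4.58 to 4.61, against 4.24 to 4.31 on untreated arrays of both lines and 4.38 to 4.40 on TTR arrays with TRAIL. Their upper quartiles were not raised, at 6.54 to 6.59, against 6.65 to 6.69 on untreated arrays and 6.69 to 6.73 on TTR arrays with TRAIL. Changes are also given after centring each array on its median. Centring moves all genes of an array by 1 value, so it also lowers genes of high level on the parental TRAIL arrays, and it is no neutral correction for them. The line's own markers were high in all groups (lowest ZEB1, 6.72 with TRAIL and 7.57 without in parental cells). With TRAIL in parental cells 6 of these 8 markers were lower and 1 higher, and their summed linear signal was 9840 to 10700 against 14000 to 15400. Of 7 measured blood markers 4 were higher there (summed signal 971 to 1050 against 698 to 764, carried mainly by CD68), while the defining marker PTPRC was at 2.44 against 2.20. The luminal breast list was not low throughout. In parental cells its highest marker, KRT18, was at 10.49 without and 10.75 with TRAIL, and its lowest, PGR, at 2.46 and 2.77. Of 10 luminal breast markers 3 were higher and 1 lower with TRAIL in parental cells, and of 7 fibroblast and endothelial markers 2 and 1. The part of these shifts in the results below was not tested.

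In parental cells most proteasome genes fell within 2 h of TRAIL. Of 45 genes 38 (84.4%) were lower and 1, PSMB11, was higher, against 29.9% lower and 28.9% higher, 58.8% in either direction, among all 18417 genes. The other 6, PSMA8, PSMB8, PSMB10, PSMD4, PSMG3 and PSMG4, were not called. The median change over the family was −1.07, a 2.10-fold fall, against 0.05 over all genes. A fall of at least 2-fold was called for 24 genes, against 13.2% of all genes and 32.1% of the third with the highest mean. After centring on array medians the family's median was −1.36, against −0.24 for all genes and −0.87 for the third with the highest mean. PSMB11 was then no longer called. Then 42 genes were lower, against 46.7% of all genes and 73.6% of the third with the highest mean. The values of the 2 groups did not overlap, TRAIL below untreated, for 38 of the 45 genes, against 31% of all genes. That share in the third with the highest mean is not given here. Over the 45 genes the median level was 9.18 to 9.22 on untreated parental arrays and 7.86 to 8.13 with TRAIL.

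The fall has to be read against the level of these genes. Proteasome genes are abundant, and 39 of the 45 lay in the third of genes with the highest mean (6139 genes with a mean of at least 6.35). In this group of genes, a background chosen after the data were seen, 62.4% of genes were lower with TRAIL in parental cells and the median was −0.58. The 39 proteasome genes in it had a median of −1.15, and 38 of them (97.4%) were lower. The 6 genes outside it were PSMA8, PSMB8, PSMB10, PSMB11, PSMD4 and PSMG4, of which PSMB11 was the only one called.

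**Figure D1:**
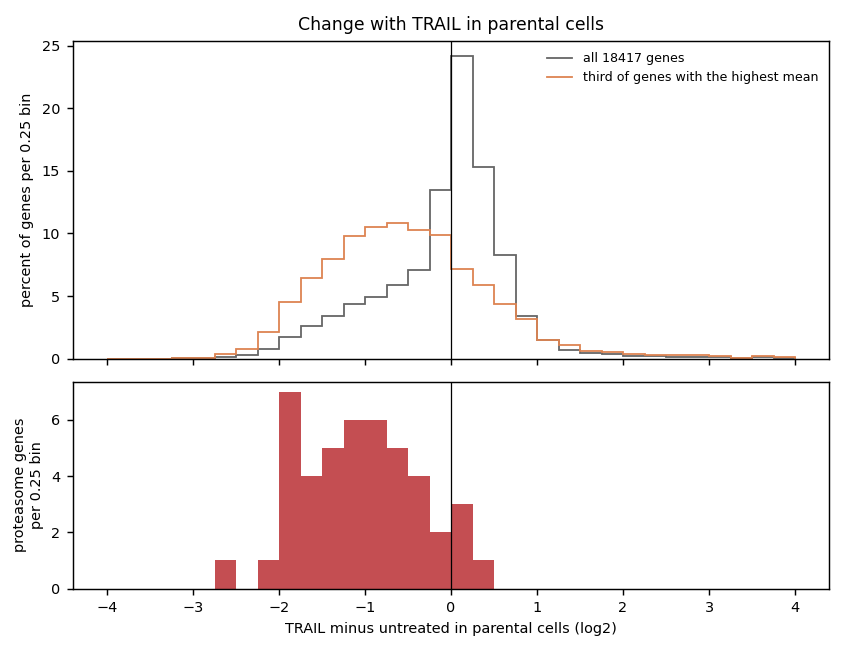
Change with TRAIL in parental cells on the log2 scale (x axis, bins of 0.25). The upper panel gives the percent of genes per bin for all 18417 genes and for the third with the highest mean, and the lower panel the number of the 45 proteasome genes; most proteasome genes lie left of 0, with a median of −1.07 against 0.05 for all genes and −0.58 for the third with the highest mean.

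Upstream sequence is shown for 6 genes that differ in their response: PSMD5, with the largest fall in the family, PSMC2 and PSMB3, which fell more than 3-fold, PSMB4, with the smallest called fall, and the induced catalytic subunits PSMB9, which fell, and PSMB10, which was not called. Each is the 250 bases before the transcript start in RefSeq, assembly GRCh38.p14, written 5′ to 3′ on the gene's strand. Positions are chr9:120842923-120843172 on the minus strand for PSMD5, chr7:103347393-103347642 on the plus strand for PSMC2 and chr17:38752491-38752740 on the plus strand for PSMB3. For PSMB4 they are chr1:151399323-151399572 on the plus strand, for PSMB9 chr6:32853942-32854191 on the plus strand and for PSMB10 chr16:67936851-67937100 on the minus strand. Capitals mark matches, on either strand, to any of 6 short motifs that are spelled out after the sequences.
PSMD5: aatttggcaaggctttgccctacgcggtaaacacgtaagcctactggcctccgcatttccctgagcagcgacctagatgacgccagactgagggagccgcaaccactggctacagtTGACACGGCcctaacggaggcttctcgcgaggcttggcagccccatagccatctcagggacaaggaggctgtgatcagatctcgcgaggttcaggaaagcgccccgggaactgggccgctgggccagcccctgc
PSMC2: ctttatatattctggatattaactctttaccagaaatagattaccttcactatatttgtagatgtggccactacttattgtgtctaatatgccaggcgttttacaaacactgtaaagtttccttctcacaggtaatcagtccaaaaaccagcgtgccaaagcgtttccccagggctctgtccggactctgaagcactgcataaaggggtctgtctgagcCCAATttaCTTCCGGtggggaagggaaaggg
PSMB3: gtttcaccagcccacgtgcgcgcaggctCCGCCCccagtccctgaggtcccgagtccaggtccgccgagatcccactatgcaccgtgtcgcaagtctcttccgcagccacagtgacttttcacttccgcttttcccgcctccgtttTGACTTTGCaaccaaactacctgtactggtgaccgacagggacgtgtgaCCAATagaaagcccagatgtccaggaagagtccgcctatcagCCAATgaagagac
PSMB4: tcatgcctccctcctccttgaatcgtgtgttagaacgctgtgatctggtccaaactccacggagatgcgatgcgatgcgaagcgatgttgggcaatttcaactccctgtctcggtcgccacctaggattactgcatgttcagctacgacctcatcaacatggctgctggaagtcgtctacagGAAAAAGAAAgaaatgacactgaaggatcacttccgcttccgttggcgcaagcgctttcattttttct
PSMB9: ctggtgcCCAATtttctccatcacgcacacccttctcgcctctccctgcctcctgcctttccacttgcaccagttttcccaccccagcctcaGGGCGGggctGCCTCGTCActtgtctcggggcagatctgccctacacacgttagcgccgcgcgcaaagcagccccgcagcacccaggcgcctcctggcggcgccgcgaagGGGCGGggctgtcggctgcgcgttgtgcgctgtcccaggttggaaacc
PSMB10: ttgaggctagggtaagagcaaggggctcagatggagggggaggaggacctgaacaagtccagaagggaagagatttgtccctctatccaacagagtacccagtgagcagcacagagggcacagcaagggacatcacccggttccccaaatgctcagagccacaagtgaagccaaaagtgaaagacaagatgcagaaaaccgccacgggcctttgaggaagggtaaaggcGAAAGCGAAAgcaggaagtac

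The first motif was TGACNNNGC, the antioxidant-type element that NFE2L1 and NFE2L2 bind with small MAF partners. The second was the CCAAT box, spelled as in its name, the third the ETS-type CCGGAAG, and the fourth the GC box, GGGCGG. The fifth, the interferon-type motif, was GAAA repeated after any 2 bases, and the sixth, the kappaB-type motif, was GGGA and CC with any 4 bases between them. Of the 45 genes 39 had such upstream windows in RefSeq, 47 in number, among 35116 windows in all. TGACNNNGC was in 25.5% of the proteasome windows and 10.9% of all windows, CCGGAAG in 21.3% and 8.52%, and the interferon-type motif in 10.6% and 3.02%. GGGCGG was in 57.4% against 42.6%, CCAAT in 36.2% against 32%, and the kappaB-type motif in 19.1% against 22.6%. Matches of different motifs overlapped in 4 places in the proteasome windows. Among the 39 genes the 12 with TGACNNNGC had a median change with TRAIL in parental cells of −0.97, against −1.08 for the others. The 17 with CCAAT had −1.45 against −0.86, and the 5 with the interferon-type motif had −0.37 against −1.11. The medians were −0.82 against −1.22 for the ETS-type motif (10 genes), −1.07 against −1.19 for the GC box (23 genes) and −0.87 against −1.08 for the kappaB-type motif (9 genes). Of the sequences printed, PSMB3, PSMB9 and PSMD5 hold TGACNNNGC, and PSMB4 and PSMB10 hold the interferon-type motif. These are matches of letters with no test, and no binding was measured here.

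The alpha ring, whose subunits form the gate of the barrel, fell in 7 of 8 genes (median −1.43). PSMA6 read 11.06, 10.88 and 10.86 without TRAIL and 8.92, 8.49 and 8.98 with it, a 4.39-fold fall (−2.13 ± 0.12, adjusted p = 4.58e-10). PSMA4 read 9.76, 9.81 and 9.74 without and 8.18, 7.59 and 8.04 with TRAIL (−1.83 ± 0.12, adjusted p = 2e-09). PSMA2 read 10.5, 10.17 and 10.36 and then 8.58, 7.98 and 8.71 (−1.92 ± 0.15). In these 3 genes every treated array was more than 1 log2 unit below every untreated array, and replicate 2 was the lowest treated array. PSMA1, PSMA3 and PSMA5 fell by 1.42, 1.45 and 0.91. PSMA7 fell least (−0.44 ± 0.09, adjusted p = 0.000429), and after a further quantile normalization its change of −0.21 was not called (adjusted p = 0.053). PSMA8, an alternative alpha subunit of the testis, stayed between 2.20 and 2.51 on all 12 arrays (0.04 ± 0.10), levels that can be background.

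All 7 constitutive beta subunits fell (median −1.52). PSMB5, which holds the chymotrypsin-like site, read 9.93, 9.61 and 9.94 without TRAIL and 8.0, 7.94 and 7.98 with it, a 3.61-fold fall (−1.85 ± 0.12, adjusted p = 1.64e-09). PSMB6, which holds the caspase-like site, read 11.26, 11.18 and 11.24 and then 9.92, 9.38 and 9.83 (−1.52 ± 0.12, adjusted p = 2.02e-08). PSMB7, with the trypsin-like site, read 10.56, 10.43 and 10.62 and then 9.68, 9.56 and 9.68 (−0.89 ± 0.11, adjusted p = 2e-06). The 3 constitutive catalytic subunits thus fell with no overlap between groups, PSMB7 by 1.86-fold and PSMB6 by 2.86-fold. Among the subunits without a site, PSMB1 read 8.81, 8.64 and 8.81 and then 7.21, 6.68 and 7.07 (−1.77 ± 0.14, adjusted p = 1.16e-08), and PSMB3 and PSMB2 fell by 1.75 and 1.22. PSMB4 read 10.11, 9.93 and 10.08 and then 9.70, 9.74 and 9.57. Its change was the smallest fall called in the family (−0.37 ± 0.10, adjusted p = 0.00396), and after quantile normalization it was −0.23 and not called (adjusted p = 0.0672).

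The induced beta subunits, which replace the constitutive catalytic subunits in immunoproteasomes, did not move as 1 group. PSMB9, the counterpart of PSMB6, read 6.73, 6.65 and 6.91 without TRAIL and 5.83, 5.64 and 5.60 with it, a 2.10-fold fall (−1.07 ± 0.12, adjusted p = 9.42e-07). PSMB8, the counterpart of PSMB5, read 5.48, 5.44 and 5.71 and then 5.0, 5.50 and 4.84, so that the groups overlapped through replicate 2. Its change was −0.44 ± 0.20 (adjusted p = 0.0706), and without replicate 2 of the parental TRAIL arrays it was −0.63 and called (adjusted p = 0.0161), as it was after median centring (−0.73, adjusted p = 0.00415). In all, PSMB8 was called in 6 of 15 alternatives, quantile normalization included (−0.63, adjusted p = 0.0166). PSMB10, the counterpart of PSMB7, read 5.59, 5.62 and 5.73 and then 5.67, 5.54 and 6.03 (0.10 ± 0.13, adjusted p = 0.525), with overlapping groups. PSMB11, a subunit of the cortical thymus, read 3.09, 3.15 and 2.80 and then 3.42, 3.37 and 3.33 (0.36 ± 0.11, adjusted p = 0.00838). That single rise was 0.07 after centring (adjusted p = 0.596) and 0.17 after quantile normalization (adjusted p = 0.247). Without replicate 3 of the untreated parental arrays the change of PSMB11 was 0.26 and not called (adjusted p = 0.0568), and its levels can be background.

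Each induced subunit was also set against its constitutive counterpart on the same array. With TRAIL in parental cells the log2 difference PSMB8 minus PSMB5 rose by 1.41 on average, PSMB10 minus PSMB7 by 1.00 and PSMB9 minus PSMB6 by 0.45. For all 3 pairs the treated and untreated values of the difference did not overlap. In TTR cells the same differences moved by 0.36, 0.15 and −0.24, and the groups overlapped for all 3 pairs. The pair differences are given without a test. They do not move when an array is centred, but other scalings can move them, and their absolute size depends on the probes. Each pair also sets a gene of low level against one of high level. With TRAIL in parental cells the median change was −0.58 in the third of genes with the highest mean, against 0.05 over all genes. How often other such pairs moved alike was not counted, so a shift particular to these subunits cannot be read from them.

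**Figure D2:**
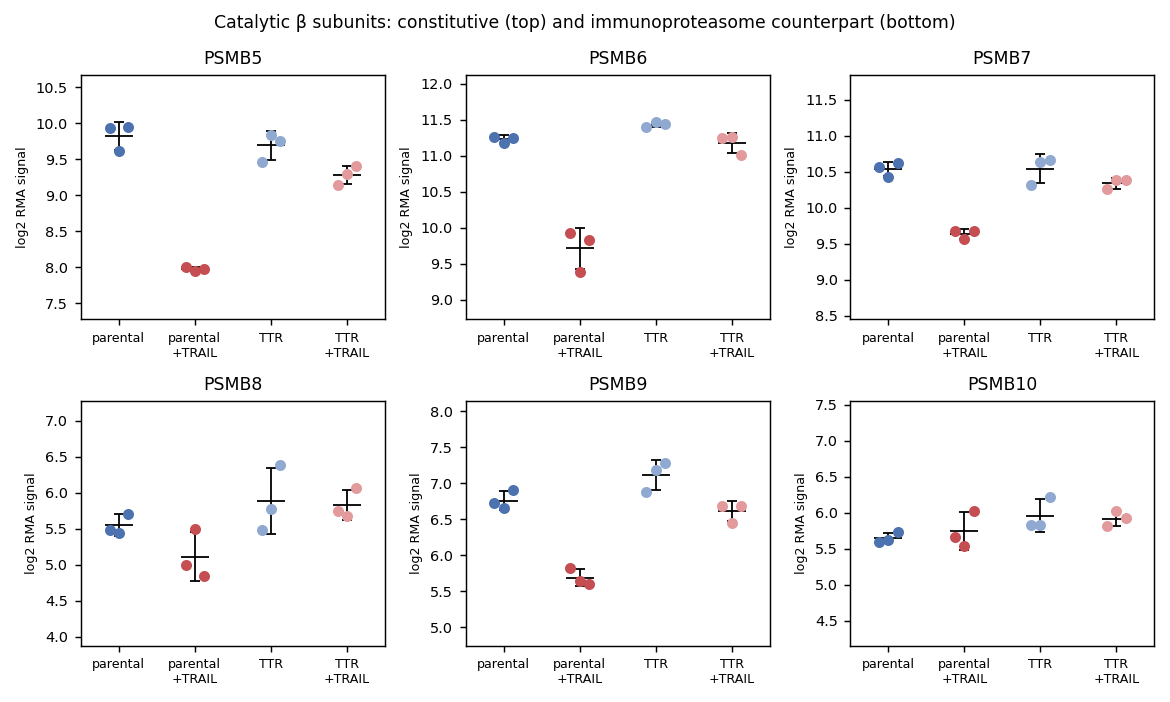
log2 RMA signal of the constitutive catalytic subunits PSMB5, PSMB6 and PSMB7 (top row) and of PSMB8, PSMB9 and PSMB10 (bottom row) on each of the 3 arrays of the 4 groups (points), with the mean and SD (bars). The y axes span the same number of log2 units and do not start at 0. The parental TRAIL points are lowest in the top row and for PSMB9, while those of PSMB8 and PSMB10 overlap the untreated parental points.

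In the base of the regulatory particle all 5 measured ATPases fell (median −0.82). PSMC2 read 9.68, 9.66 and 9.61 without TRAIL and 7.87, 7.44 and 7.81 with it, a 3.84-fold fall (−1.94 ± 0.11, adjusted p = 3.82e-10). PSMC4 read 9.98, 10.01 and 9.97 and then 9.13, 8.86 and 8.88 (−1.03 ± 0.11, adjusted p = 2.95e-07). PSMC1, PSMC6 and PSMC3 fell by 0.82, 0.80 and 0.66. The ring of ATPases thus did not fall evenly, with PSMC2 past the other 4. Of the base scaffolds, PSMD2 read 9.73, 9.75 and 9.62 and then 8.69, 8.65 and 8.52 (−1.08 ± 0.10, adjusted p = 5.72e-08). PSMD1 read 8.84, 9.03 and 8.84 and then 7.93, 7.51 and 8.05 (−1.07 ± 0.13, adjusted p = 3.42e-06). Both scaffolds fell by about the same amount. PSMD4, a ubiquitin receptor, read 6.16, 6.22 and 6.04 and then 5.96, 6.17 and 5.92, with overlapping groups (−0.13 ± 0.10, adjusted p = 0.289). After median centring its change was −0.42 and called (adjusted p = 0.00191).

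Of the lid, all 6 measured genes of PSM symbol fell (median −1.27, range −1.47 to −0.71). PSMD14, the metalloprotease that cuts ubiquitin chains from the substrate, read 9.47, 9.46 and 9.35 without TRAIL and 8.13, 7.60 and 8.14 with it, a 2.77-fold fall (−1.47 ± 0.12, adjusted p = 3.18e-08). PSMD11, which links lid and base, read 9.80, 9.77 and 9.69 and then 8.54, 8.15 and 8.42 (−1.38 ± 0.11, adjusted p = 2.23e-08). None of these 6 had overlapping groups. SEM1, a lid subunit outside the family by symbol, rose, and its values stand with the partner genes. The structural subunits PSMD6, PSMD8, PSMD12 and PSMD3 fell by 1.40, 1.15, 0.87 and 0.71.

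The 3 chaperones that assemble the base all fell (median −1.56). PSMD5, which binds ATPases of the unfinished base, read 9.10, 8.92 and 8.93 without TRAIL and 6.74, 5.85 and 6.56 with it. This was the largest fall in the family, 6.08-fold (−2.60 ± 0.16, adjusted p = 1.34e-09). Its upstream window is the first of those printed above. PSMD10, known as gankyrin, read 9.43, 9.55 and 9.58 and then 7.97, 7.86 and 8.02 (−1.56 ± 0.10, adjusted p = 1.76e-09). PSMD9 fell by 0.38 ± 0.12 (adjusted p = 0.0107). That call was lost without replicate 2 of the parental TRAIL arrays (−0.25, adjusted p = 0.0626) and after quantile normalization (−0.25, adjusted p = 0.106), so the 3 base chaperones ranged from a small to the largest change.

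The 4 chaperones of the core were split. PSMG2, which works as a pair with PSMG1 on the alpha ring, read 9.78, 9.71 and 9.56 without TRAIL and 7.80, 7.73 and 7.71 with it, a 3.82-fold fall with the smallest p in the family (−1.93 ± 0.09, adjusted p = 1e-10). Its partner PSMG1 read 8.30, 8.24 and 8.35 and then 7.66, 7.25 and 7.78 (−0.74 ± 0.12, adjusted p = 6.05e-05). The other pair was not called. PSMG3 read 8.33, 8.22 and 8.62 and then 8.13, 8.13 and 8.31 (−0.20 ± 0.16, adjusted p = 0.308), with overlapping groups. PSMG4 lay between 3.76 and 4.32 on all 12 arrays (0.03 ± 0.11, adjusted p = 0.837). After median centring PSMG3 was at −0.49 (adjusted p = 0.0159) and PSMG4 changed sign to −0.26 (adjusted p = 0.0445).

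The alternative caps and the inhibitor of the core all fell, 5 of 5 genes (median −0.85). PSME1, a subunit of the interferon-inducible activator ring, read 9.12, 9.23 and 9.22 without TRAIL and 7.70, 7.44 and 7.67 with it, a 3.00-fold fall (−1.58 ± 0.09, adjusted p = 7.61e-10). PSME3, the nuclear activator, read 10.72, 10.64 and 10.62 and then 9.34, 8.83 and 9.22 (−1.53 ± 0.12, adjusted p = 1.43e-08). PSME2, which shares the activator ring with PSME1, fell by 0.72 ± 0.09. The large single-chain activator PSME4 read 8.93, 8.92 and 8.75 and then 8.19, 8.20 and 8.56 (−0.55 ± 0.11, adjusted p = 4e-04), and the inhibitor PSMF1 fell by 0.85 ± 0.10. No group overlapped its control in these 5 genes. Across the 38 genes that fell, the lowest parental TRAIL array was replicate 2 in 30, replicate 3 in 7 and replicate 1 in 1, and without replicate 2 the family's median change was −0.99.

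**Figure D3:**
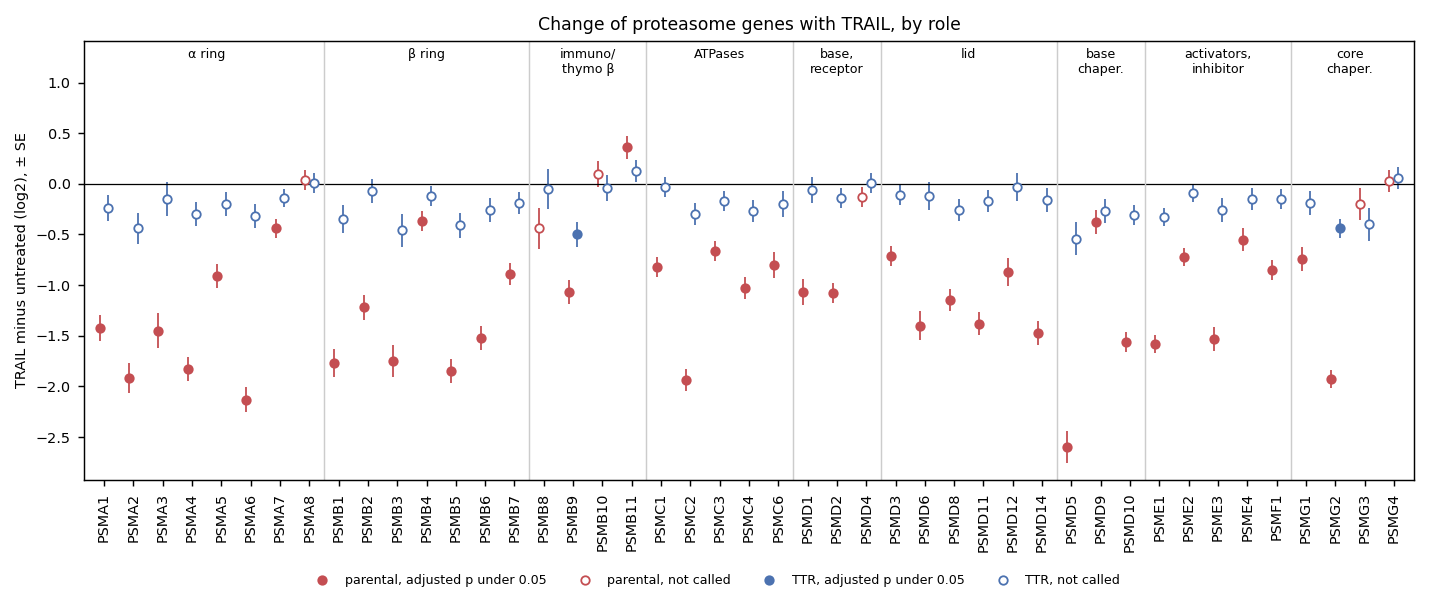
TRAIL minus untreated on the log2 scale (y axis, bars are ± SE of the limma fit) for the 45 proteasome genes by role (x axis), in parental (red) and TTR cells (blue). Filled points have a limma adjusted p under 0.05. In parental cells 38 filled points lie below 0 and 1 above, and in TTR cells 2 lie below.

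In TTR cells the same treatment gave small shifts. Of 45 genes 2 (4.44%) were called lower and 0 higher by limma, against 2.55% lower and 3.27% higher among all genes and 5.82% in either direction, a share near the background. In the third of genes with the highest mean 4.94% were lower and 5.51% higher. At an unadjusted p under 0.05, 2208 of all 18417 genes were lower and 1586 higher. Of the 6139 genes of high mean 1442 were lower and 701 higher, and of the family 18 and 0. The median change was −0.19, against −0.01 over all genes and −0.10 over the third with the highest mean. Of the 45 genes 41 (91.1%) had a change below 0, against 51.5% of all genes and 64.6% of the third with the highest mean. For 22 genes the groups did not overlap, with TRAIL lower, against 16.3% of all genes. The share without overlap among genes of high mean is not given here. The TTR arrays without and with TRAIL were taken as paired by array number from these data, not by a stated design. Correlations of similar size occurred between arrays not taken as paired, so this pairing is uncertain. With a block for the array number, 13 genes were lower when only these 2 groups were fitted and 6 when all arrays were. After median centring, without a block, 15 were lower (family median −0.30). The shares lower were then 10.6% of all genes and 20.8% of the third with the highest mean. For the blocked fits the share over all genes is not given here.

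PSMB9 and PSMG2 were the 2 genes called lower in TTR cells. PSMB9, the induced counterpart of PSMB6, read 6.88, 7.18 and 7.28 without TRAIL and 6.68, 6.45 and 6.69 with it (−0.50 ± 0.12, adjusted p = 0.0229). PSMG2 read 9.69, 9.72 and 9.61 and then 9.36, 9.21 and 9.15 (−0.44 ± 0.09, adjusted p = 0.0131). The groups of both genes did not overlap, yet single arrays decided the calls. PSMB9 was not called without TTR untreated replicate 2 (adjusted p = 0.095) or 3 (0.103), nor without TTR TRAIL replicate 1 (0.0512) or 2 (0.126). PSMG2 was not called without TTR untreated replicate 2 (adjusted p = 0.0678), nor without TTR TRAIL replicate 2 (0.069) or 3 (0.0602). The count over the family was 0 without TTR untreated replicate 2 or TTR TRAIL replicate 2, and 5 without TTR untreated replicate 1. Shares over all genes for these fits are not given here.

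Other members came close in TTR cells. PSME1 read 8.97, 8.93 and 8.96 without TRAIL and 8.71, 8.57 and 8.60 with it (−0.33 ± 0.09, adjusted p = 0.0542). PSMB5 read 9.46, 9.84 and 9.75 and then 9.14, 9.29 and 9.41 (−0.41 ± 0.12, adjusted p = 0.0574). PSMD5 read 9.22, 9.27 and 9.13 and then 8.75, 8.65 and 8.58 (−0.54 ± 0.16, adjusted p = 0.0649), the largest difference of the family in TTR cells. Each of these 3 had non-overlapping groups, and each was called in both blocked fits, as was PSMG3 (−0.40 ± 0.16, adjusted p = 0.163 without the block). The blocked fit of the 2 groups alone also called PSMA2, PSMA4, PSMA6, PSMB1, PSMB3, PSMC2 and PSMD10. PSMA2 read 10.53, 10.61 and 10.63 and then 10, 10.20 and 10.26 (−0.44 ± 0.15), and PSMC2 read 9.59, 9.70 and 9.60 and then 9.31, 9.36 and 9.31 (−0.30 ± 0.11). PSMD8, with the smallest p of the lid, was at −0.26 ± 0.11 (adjusted p = 0.191) and PSMD2 at −0.14 ± 0.10 (adjusted p = 0.434).

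The catalytic subunits of TTR cells showed the contrast in levels. PSMB6 read 11.39, 11.47 and 11.44 without TRAIL and 11.24, 11.26 and 11.01 with it (−0.26 ± 0.12), and PSMB7 read 10.31, 10.64 and 10.66 and then 10.26, 10.39 and 10.39 (−0.19 ± 0.11). PSMB8 read 5.48, 5.77 and 6.38 and then 5.75, 5.67 and 6.07 (−0.05 ± 0.20), and PSMB10 read 5.83, 5.83 and 6.22 and then 5.81, 6.02 and 5.93 (−0.04 ± 0.13). The groups overlapped for PSMB7, PSMB8 and PSMB10 and not for PSMB6, and none of these 4 was called.

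Whether TRAIL acted unequally in the 2 lines was tested directly. The TTR effect minus the parental effect was called and above 0 for 34 of 45 genes (75.6%), and called and below 0 for 0 (also 0 at an unadjusted p under 0.05). Among all genes 22.9% were called above and 14.3% below 0, and 53.5% above in the third with the highest mean. After centring 37 genes were called above 0, against 29.4% of all genes and 62.4% of the third with the highest mean. The median difference was 0.84, or 1.02 after centring. Over all genes it was −0.03 and 0.15, and over the third with the highest mean 0.5 and 0.68. It was largest for PSMD5 (2.06 ± 0.23, adjusted p = 5.21e-06), PSMA6 (1.82 ± 0.17, adjusted p = 1.3e-06) and PSMC2 (1.64 ± 0.15, adjusted p = 1.23e-06), and PSMG2 (1.5 ± 0.13) had the smallest p (adjusted p = 9.49e-07). By role it was called for 6 of 8 alpha, 6 of 7 constitutive beta and 1 of 4 induced or thymic beta subunits. It was also called for 5 of 5 ATPases, 2 of 3 base scaffolds and receptors, 6 of 6 lid genes of PSM symbol, 2 of 3 base chaperones, 4 of 5 activators and inhibitor and 2 of 4 core chaperones. Genes not called included PSMA7 (0.30 ± 0.12, adjusted p = 0.0697), PSMB4 (0.25 ± 0.14, adjusted p = 0.179) and PSME4 (0.40 ± 0.16, adjusted p = 0.0533). PSMA7 was called without parental TRAIL replicate 1 (adjusted p = 0.0426). PSME4 was called in 7 of 19 alternatives, among them without parental untreated replicate 3, parental TRAIL replicate 3 or TTR untreated replicate 1 (values over all alternatives 0.19 to 0.59). After quantile normalization PSMC3, PSMC6 and PSMG1 were no longer called (adjusted p = 0.163, 0.104 and 0.164).

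All 38 genes that fell in parental cells had a change below 0 in TTR cells, and all 38 were nearer 0 there. Their median change was −1.19 in parental and −0.20 in TTR cells, so the second was 17% of the first. Over all 5508 genes that were lower in parental cells the medians were −0.91 and −0.20, or 22.1%, and 89% were below 0 in TTR cells. The difference between the lines was called for 34 of the 38 (89.5%), against 75.8% of the 5508. Both sets were chosen by their fall on the parental arrays, which the difference between the lines also uses. The choice itself thus favours changes nearer 0 in TTR cells and differences above 0, and these values are no separate evidence. How many of the 5508 were nearer 0 is not given here.

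Without TRAIL few of these genes were called different between the lines. Of 45 genes 1, the ATPase PSMC4, was lower in TTR than in parental cells and 0 were higher by limma, against 3.47% lower and 3.64% higher among all genes (7.11% in either direction) and 6.06% and 5.51% in the third with the highest mean. At an unadjusted p under 0.05 the numbers were 4 lower and 5 higher, against 1745 and 1730 of all 18417 genes. The median was −0.01 over the family and over all genes. The groups did not overlap for 7 of the 45 genes with TTR lower and for 9 with TTR higher, against 12.5% and 12% of all genes. PSMC4 read 9.98, 10.01 and 9.97 in parental and 9.49, 9.48 and 9.31 in TTR cells, a 1.48-fold difference with no overlap (−0.56 ± 0.11, adjusted p = 0.00335), and it was called under all 16 alternatives. The highest difference was that of PSMG3, which read 8.33, 8.22 and 8.62 in parental and 8.58, 8.91 and 9.31 in TTR cells (0.54 ± 0.16, adjusted p = 0.0572), with overlapping groups. PSMG3 was called in 8 of 16 alternatives, both blocked fits included (adjusted p = 0.00501 over all arrays), and among single arrays it was called without TTR untreated replicate 1 (0.72, adjusted p = 0.0112) and without parental untreated replicate 3 (0.66, adjusted p = 0.044).

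PSMD2 read 9.73, 9.75 and 9.62 in untreated parental and 10.12, 9.98 and 9.97 in untreated TTR cells (0.33 ± 0.10, adjusted p = 0.051), with no overlap. It was called in 7 of 16 alternatives, among them median centring (0.34, adjusted p = 0.0398). The 3 immunoproteasome subunits had similar values above 0. PSMB9 was at 0.35 ± 0.12 (adjusted p = 0.0949), PSMB8 at 0.33 ± 0.20 (adjusted p = 0.42) and PSMB10 at 0.32 ± 0.13 (adjusted p = 0.192). None was called, the groups overlapped for PSMB8 and PSMB9, and PSMB9 was called without TTR untreated replicate 1 (0.47, adjusted p = 0.0271). PSMD10 was at 0.29 ± 0.10 (adjusted p = 0.113) and PSMA2 at 0.25 ± 0.15, while PSME4 was at −0.32 ± 0.11 (adjusted p = 0.0976), PSMB4 at −0.26 ± 0.10 (adjusted p = 0.142) and PSMD6 at −0.14 ± 0.14. All 5 activators and inhibitor had values below 0 (−0.32 to −0.10), and all 3 base chaperones values above 0 (0.19 to 0.29), with 0 called in either class (2 of the former and 1 of the latter at an unadjusted p under 0.05).

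Under TRAIL the lines differed widely. Of 45 genes 36 (80%) were higher in TTR than in parental cells and 0 lower (also 0 at an unadjusted p under 0.05), against 28% higher and 26.4% lower among all genes (54.4% in either direction) and 59.4% higher in the third with the highest mean, a background chosen after the data were seen. For 36 genes the groups did not overlap, with TTR higher, against 29.7% of all genes. That share in the third with the highest mean is not given here. Among the genes of high mean 35 of 39 proteasome genes (89.7%) were higher. After centring 40 genes were higher, against 37.1% of all genes and 68.9% of the third with the highest mean. The median was 0.92, or 1.12 after centring, against −0.07 and 0.14 over all genes and 0.48 and 0.68 over the third with the highest mean. This comparison shares its arrays with the TRAIL comparisons above and is no separate evidence. PSMD5 read 6.74, 5.85 and 6.56 in parental and 8.75, 8.65 and 8.58 in TTR cells under TRAIL, 4.86-fold higher (2.28 ± 0.16, adjusted p = 1.04e-08), PSMC2 was 3.07-fold (1.62 ± 0.11) and PSMD10 2.91-fold higher (1.54 ± 0.10). PSMC4, lower in untreated TTR cells, read 9.13, 8.86 and 8.88 in parental and 9.27, 9.21 and 8.99 in TTR cells under TRAIL, with overlapping groups (0.20 ± 0.11, adjusted p = 0.115). Without parental TRAIL replicate 1 or TTR TRAIL replicate 3 PSMC4 was called higher. PSMD9 was called (0.31 ± 0.12, adjusted p = 0.0375) with overlapping groups, and it lost the call without parental TRAIL replicate 1 or 2 or TTR TRAIL replicate 2 or 3 (adjusted p = 0.0534, 0.193, 0.149 and 0.0883). The genes not called were PSMA8, PSMB4, PSMB10, PSMB11, PSMC4, PSMD4, PSME4, PSMG3 and PSMG4.

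**Figure D4:**
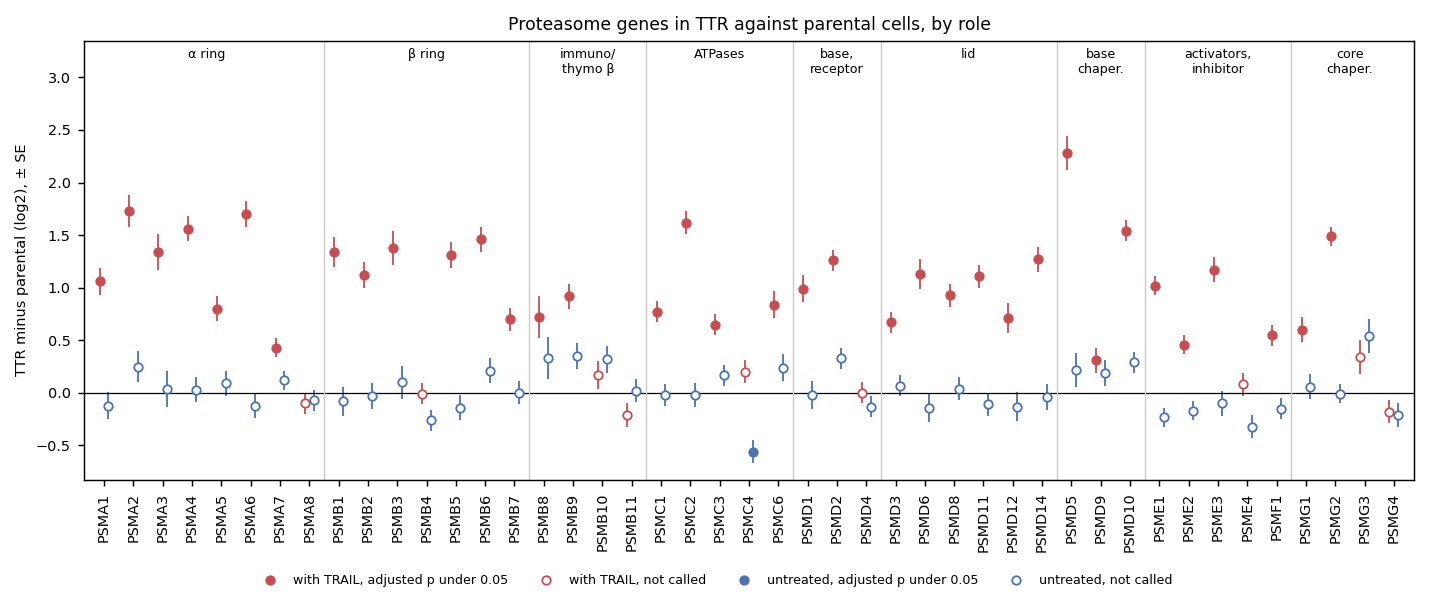
TTR minus parental on the log2 scale (y axis, bars are ± SE of the limma fit) for the 45 proteasome genes by role (x axis), with TRAIL (red) and untreated (blue). Filled points have a limma adjusted p under 0.05: 36 above 0 with TRAIL and PSMC4 below 0 without it.

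Genes that work with the proteasome were followed from 4 lists. Of 11 other subunits, assembly factors and bound factors, 8 (72.7%) fell and 2 (18.2%) rose with TRAIL in parental cells (median −0.93). Among all genes 29.9% were lower and 28.9% higher. In the third with the highest mean the shares were 62.4% and 18.4%, near those of the list, and the median was −0.58. The deubiquitinase USP14, which sits on the base, read 8.15, 8.36 and 8.18 without TRAIL and 6.57, 6.56 and 6.57 with it (−1.67 ± 0.10, adjusted p = 8.66e-10). PAAF1, a chaperone of the base, fell by 1.73 ± 0.12 and POMP, the maturation factor of the core, by 1.21 ± 0.12. SEM1, the smallest lid subunit, went the other way. It read 8.03, 8.04 and 7.83 without and 9.26, 9.24 and 9.12 with TRAIL, a 2.36-fold rise (1.24 ± 0.11, adjusted p = 9.92e-08). ZFAND5, a zinc-finger protein that stimulates the proteasome, rose 1.77-fold (0.82 ± 0.11).

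In TTR cells SEM1 read 8.06, 7.82 and 7.73 without TRAIL and 8.40, 8.71 and 8.41 with it (0.63 ± 0.11, adjusted p = 0.00348). ZFAND5 rose by 0.41 ± 0.11 (adjusted p = 0.0417), and USP14 and PAAF1 fell by 0.37 ± 0.10 and 0.49 ± 0.12 (adjusted p = 0.0447 and 0.0229). SEM1 rose in both lines, by less in TTR cells (difference −0.60 ± 0.16, adjusted p = 0.0078), and after median centring that difference was −0.42 and not called (adjusted p = 0.0588). USP14, PAAF1 and POMP fell less in TTR cells, with differences of 1.3, 1.23 and 1.07. After centring the ZFAND5 rise in TTR cells was 0.30 and not called (adjusted p = 0.0832). Over the alternatives the TTR call of SEM1 held in all 16, while those of ZFAND5, USP14 and PAAF1 were each lost when single TTR arrays were left out (adjusted p up to 0.179, 0.2 and 0.0972).

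Of 13 measured genes (18 listed) for ubiquitin, its activation and its delivery, 10 fell and 1 rose with TRAIL in parental cells (median −0.91), against 29.9% lower and 28.9% higher among all genes and 62.4% lower among those of high mean. UBQLN4, 1 of the 10, lost its call in 6 of 15 alternatives. The ubiquitin ligase UBE3A read 7.22, 7.25 and 7.20 without TRAIL and 5.82, 5.60 and 5.95 with it (−1.43 ± 0.10, adjusted p = 5.71e-09). The activating enzyme UBA6 and the ligase UBE3C fell by 1.32 ± 0.10 and 1.03 ± 0.09. UBB, which encodes ubiquitin itself, read 11.98 to 12.03 and then 12.42, 12.33 and 12.32 (0.35 ± 0.09, adjusted p = 0.00256), a rise of 0.06 after centring that was not called (adjusted p = 0.58). In TTR cells 0 of the 13 were called (2 lower and 1 higher at an unadjusted p under 0.05, median −0.15).

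Of 8 measured (10 listed) transcription factors of proteasome genes and their processing enzymes, 5 (62.5%) fell and 3 (37.5%) rose with TRAIL in parental cells. Among all genes 29.9% were lower and 28.9% higher, and among those of high mean 62.4% and 18.4%. NFE2L1, which drives proteasome genes when degradation fails, read 7.83, 8.16 and 7.76 without TRAIL and 8.57, 8.79 and 8.58 with it, a 1.65-fold rise (0.72 ± 0.12, adjusted p = 4.42e-05, and 0.43 after centring). Its relatives NFE2L2 and NFE2L3 and their partner MAFG fell by 1.44 ± 0.12, 1.15 ± 0.11 and 1.10 ± 0.10, and NGLY1, which helps to activate NFE2L1, by 1.46 ± 0.14. Over the alternatives the MAFG change ranged from −1.39 to −0.26. MAFF and FOXO4 rose by 0.47 ± 0.10 and 1.49 ± 0.16, and the rise of MAFF was 0.18 and not called after centring (adjusted p = 0.152). In TTR cells NFE2L1 read 7.61, 7.46 and 7.35 without TRAIL and 7.94, 7.98 and 7.84 with it (0.45 ± 0.12, adjusted p = 0.0343). MAFF rose by 0.36 ± 0.10 (adjusted p = 0.0402). After centring neither was called in TTR cells (adjusted p = 0.0638 and 0.117). The NFE2L1 call was also lost when any 1 of 5 TTR arrays was left out, every one but untreated replicate 1, and the MAFF call when any of the 6 was (adjusted p over the alternatives up to 0.137 and 0.164). Further, for NFE2L1 the difference between the lines was not called (−0.28, adjusted p = 0.2). Untreated TTR cells had less NFE2L1 than untreated parental cells (−0.45 ± 0.12, adjusted p = 0.0266), a call that leaving out 1 array ended in 4 of 6 cases (largest adjusted p over all alternatives 0.138).

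Class I antigen presentation, which uses peptides from the proteasome, moved in both directions, with 4 of 9 measured genes (15 listed) lower and 3 higher with TRAIL in parental cells, shares not far from the 29.9% and 28.9% of all genes. Of these calls CALR was lost in 8 of 15 alternatives, and ERAP2 in 10, with its sign turned after centring. IRF1, which drives the immunoproteasome and peptide transporter genes, read 6.27, 6.25 and 6.49 without TRAIL and 8.62, 8.64 and 8.39 with it, a 4.64-fold rise (2.22 ± 0.10, adjusted p = 5.98e-11). In TTR cells it rose 2.70-fold (1.43 ± 0.10, adjusted p = 1.75e-07), less than in parental cells (difference −0.78 ± 0.15, adjusted p = 0.000499). The peptide trimming enzyme ERAP1 fell by 1.43 ± 0.12 and the transporter subunits TAP1 and TAP2 by 0.54 ± 0.16 and 0.40 ± 0.10 in parental cells. TAP1 was not called there without parental TRAIL replicate 3 (largest adjusted p 0.0536), and TAP2 was not called after quantile normalization (adjusted p = 0.124). NLRC5, a further activator of class I genes, rose by 0.40 ± 0.09, which was 0.11 and not called after centring (adjusted p = 0.331). At 2 h, with IRF1 higher, its known targets PSMB9, TAP1 and TAP2 were lower in parental cells and PSMB8 and PSMB10 were not called. PSMB8 was lower in 6 of 15 alternatives (values over all 15 from −0.73 to −0.3), and PSMB10 was called in 0 of them.

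**Figure D5:**
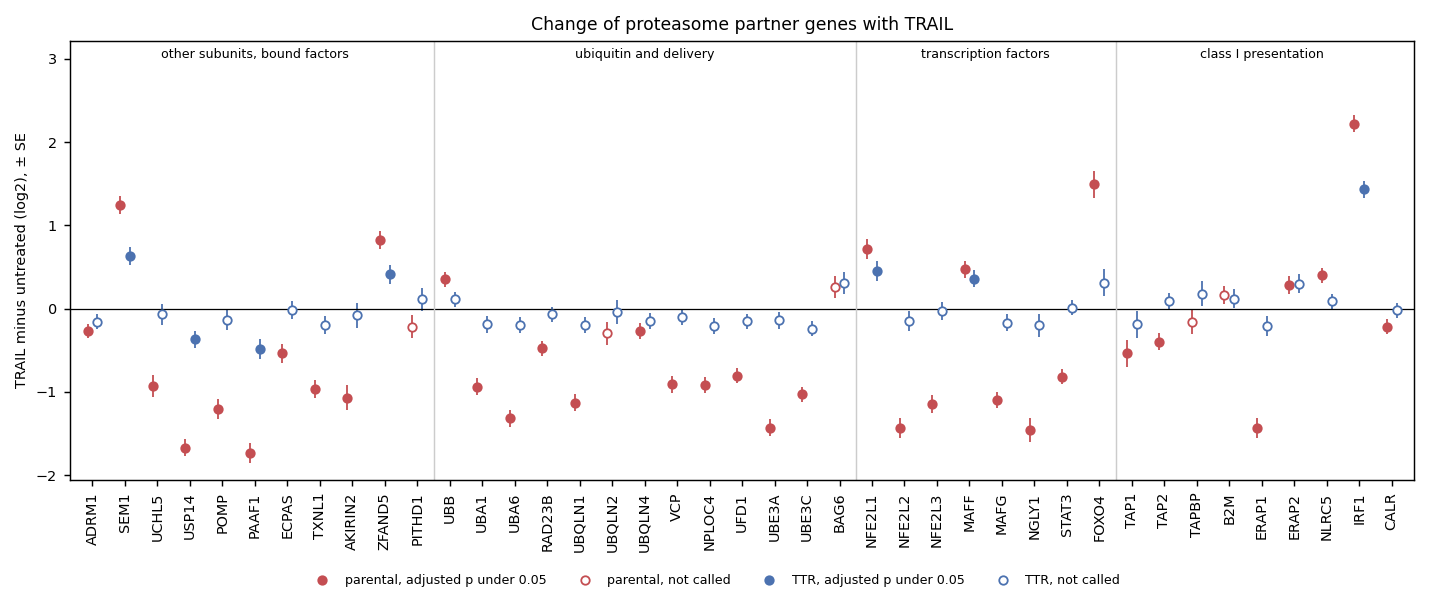
TRAIL minus untreated on the log2 scale (y axis, bars are ± SE of the limma fit) for the partner genes of the 4 lists (x axis) in parental (red) and TTR cells (blue). Filled points have a limma adjusted p under 0.05; SEM1, ZFAND5, NFE2L1, MAFF and IRF1 are filled and above 0 in both lines.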

How the data were processed

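RNA of 12 samples was measured on Affymetrix arrays, 3 in each of 4 groups taken from the sample labels. The deposited values are on the log2 scale, and RMA in Affymetrix Power Tools is named in the submitters' processing notes; for versions, settings and genome build: not given in the sources used here. RMA makes arrays alike in total signal, and no detection measure was used, so low levels can be background.

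Of 33252 features, 19460 named 1 gene, 1754 several and 12038 none in the platform annotation. Of the first, 19429 matched the RefSeq gene table (GRCh38.p14), and 0 symbols changed. The feature with the highest mean stood for each of 18417 genes. No 2 arrays held identical values. All 12 arrays were fitted with limma 3.58.1 in R 4.3.3 (group means, 8 residual and 7.87 prior degrees of freedom), with a threshold of 0.05 after Benjamini-Hochberg adjustment over all genes. The fit was tested on simulated data with 200 changed genes. Figures were drawn with matplotlib 3.10.9. Array number limits the precision.

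The genes and lists were chosen with earlier results of these data known. Array values are given for PSMB5 to PSMB10 and, in each role class, mainly for the 2 genes with the smallest p for TRAIL in parental cells and the 1 with the smallest p in each other comparison. For partner lists up to 3 called genes with the smallest p per comparison are named. PSMB3, PSMD4, PSMB11, PSMC4, PSMG3, UBB, MAFF, NLRC5, POMP, TAP1 and other genes named beyond these were chosen after their values were seen.

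Same-numbered arrays share a code in their descriptions that is not explained. Correlations of deviations from group means were 0.146 to 0.395 for same-numbered TTR arrays without and with TRAIL, all over 0.1, and those arrays were taken as paired by the data, not by a stated design. For parental arrays without and with TRAIL they were 0.0561 to 0.107, and these were not paired. Between untreated arrays of the 2 lines, also not paired, same-numbered values were −0.0332 to 0.373. There parental replicate 2 and TTR replicate 1 had 0.302. Differently numbered TTR arrays without and with TRAIL had −0.344 to 0.0554. Values of the size seen in TTR cells thus also occurred between unpaired arrays, and they do not establish a pairing. Alternatives were median centring, quantile normalization, the mean of features, only the compared groups, array weights, no weak genes, replicate blocks, limma-trend and leaving out each array.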

Additional observations from a re-analysis of the deposited data

Results flagged for a closer look

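For 34 proteasome genes and 26 partner genes the TRAIL effect differed between the lines by limma's test of the difference itself, adjusted over all genes, which is why they are listed. Values are the TRAIL change in TTR cells minus that in parental cells on the log2 scale, n = 3 arrays in each of the 4 groups. For the proteasome genes they lay between 0.49 and 2.06, with a largest adjusted p of 0.0192.

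Among alpha subunits the difference was 1.18 for PSMA1, 1.48 for PSMA2, 1.29 for PSMA3, 1.53 for PSMA4, 0.7 for PSMA5 and 1.82 for PSMA6. Among beta subunits it was 1.42 for PSMB1, 1.15 for PSMB2, 1.29 for PSMB3, 1.44 for PSMB5, 1.26 for PSMB6, 0.7 for PSMB7 and 0.56 for PSMB9. The ATPases had 0.79 for PSMC1, 1.64 for PSMC2, 0.49 for PSMC3, 0.76 for PSMC4 and 0.6 for PSMC6. In the lid it was 0.6 for PSMD3, 1.27 for PSMD6, 0.89 for PSMD8, 1.22 for PSMD11, 0.84 for PSMD12 and 1.31 for PSMD14. The base scaffolds had 1.01 for PSMD1 and 0.93 for PSMD2, and the base chaperones 2.06 for PSMD5 and 1.25 for PSMD10. Activators and the inhibitor had 1.26 for PSME1, 0.63 for PSME2, 1.27 for PSME3 and 0.7 for PSMF1, and core chaperones 0.54 for PSMG1 and 1.5 for PSMG2.

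Among other subunits and bound factors the difference was −0.6 for SEM1, 0.85 for UCHL5, 1.3 for USP14, 1.07 for POMP, 1.23 for PAAF1, 0.52 for ECPAS, 0.77 for TXNL1 and 0.99 for AKIRIN2. In the ubiquitin list it was 0.75 for UBA1, 1.12 for UBA6, 0.41 for RAD23B, 0.93 for UBQLN1, 0.81 for VCP, 0.71 for NPLOC4, 0.65 for UFD1, 1.29 for UBE3A and 0.79 for UBE3C. The transcription factor list had 1.29 for NFE2L2, 1.12 for NFE2L3, 0.93 for MAFG, 1.26 for NGLY1, 0.83 for STAT3 and −1.19 for FOXO4. In the class I list it was 0.49 for TAP2, 1.22 for ERAP1 and −0.78 for IRF1. After median centring the SEM1 difference was not called (adjusted p = 0.0588), nor were those of TAP2, PSMC3, PSMC6 and PSMG1 after quantile normalization (adjusted p = 0.167, 0.163, 0.104 and 0.164) or that of MAFG with the mean of its features (adjusted p = 0.0785). RAD23B was not called after quantile normalization or without parental untreated replicate 1 (adjusted p up to 0.32), nor ECPAS after quantile normalization or without parental untreated replicate 2 (adjusted p up to 0.163). Groups of 3 arrays are too small for the check on single outlying arrays.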

How the results depend on the processing

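TRAIL in parental cells called 39 proteasome genes, and 36 to 42 under 15 alternatives, with 35 of the 39 called in each. TTR against parental, with TRAIL gave 36, and 35 to 40 under 15 alternatives, with 35 kept in each. The test of unequal TRAIL effects in the 2 lines gave 34, and 31 to 37 under 19 alternatives, with 31 kept in each. Apart from centring, and quantile normalization for TRAIL in parental cells, counts over all genes under these alternatives are not given here.

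TRAIL in TTR cells called 2 genes, of which 0 were kept in all 16 alternatives. The number was 15 after centring each array on its median, 5 with only the compared groups in the fit, 16 with array weights, 5 when genes with low means were left out and 8 when parental TRAIL arrays were. With the replicate block it was 6 over all arrays and 13 over the groups compared. Leaving out 1 array gave 0 to 5. The cause of these moves was not tested. After centring 10.6% of all genes were lower and 2.43% higher. For the other alternatives the share over all genes is not given here, so their counts cannot be read as particular to the family.

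TTR against parental, untreated called 1 gene, PSMC4, which was kept in all 16 alternatives. The number was 3 after centring, 2 with the mean of all features, 7 with array weights, 3 when genes with low means were left out, 3 with limma-trend and 3 when parental TRAIL arrays were left out. With the replicate block it was 3 over all arrays and 2 over the groups compared, and these arrays were not taken as paired. Leaving out 1 array gave 1 to 3. The cause was not tested. After centring 3% of all genes were lower and 3.97% higher. Shares over all genes under the other alternatives are not given here, so these counts cannot be read as particular to the family.

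With the block TRAIL in parental cells gave 39 and 40, TTR against parental, with TRAIL gave 37 and 36, and the test of unequal TRAIL effects 34. PSMG4: TRAIL in parental cells changed sign to −0.26 after centring, and ERAP2: TRAIL in parental cells to −0.01 (adjusted p = 0.934). Centring moves all changes of a comparison by 1 value, so these follow from its construction. Over all genes TRAIL in parental cells gave 5319 higher and 5508 lower, 2328 and 8608 after centring, and 3524 and 5783 after quantile normalization. Signal near background limits PSMA8, PSMB11 and PSMG4.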

Other observations

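Some proteasome genes lie beside each other or beside genes of the lists in RefSeq (GRCh38.p14). On chromosome 6 PSMB8 lies between TAP2 and TAP1, and PSMB9 is next to TAP1. With TRAIL in parental cells PSMB9, TAP1 and TAP2 fell by 1.07, 0.54 and 0.40 on the log2 scale, and PSMB8 was at −0.44 and not called. On chromosome 14 PSMB5 is next to PSMB11, and PSMB5 fell by 1.85 while PSMB11 was called at 0.36, a value of 0.07 after centring. PSME1 and PSME2, with EMC9 between them on chromosome 14, fell by 1.58 and 0.72. These are values side by side, with no test of neighbourhood.

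Across the 45 genes the TRAIL changes in parental and in TTR cells, which share no arrays, had a Pearson r of 0.73 and a Spearman rho of 0.71. Over the 39 genes in the third with the highest mean these were 0.575 and 0.58. The genes share their libraries and are not independent, so no p is given.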
